A study of Mus musculus with 32 samples.

Results

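Developmental transcription factors of 10 families were followed through maps of N6-methyladenosine (m6A) in mouse embryonic stem cells. The families were Hox, Fox, Pax, Lhx, Nkx, Irx, Sox, Gata, Tbx and the sine oculis homeobox genes. A gene was a member if it was protein-coding in the GRCm38.p6 (mm10) annotation and its symbol opened with one of these names followed by a family letter or number. Sox2, Sox17, Foxa2, Gata4, Gata6 and Tbx3 were left out by the same rule. This gave 158 of the 21900 protein-coding genes: 39 Hox, 43 Fox, 9 Pax, 8 Lhx, 14 Nkx, 6 Irx, 17 Sox, 4 Gata, 12 Tbx and 6 sine oculis homeobox genes.

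The cells were embryonic stem cells of strain C57BL/6, and all groups were kept in medium with LIF at 1000 U/ml, CHIR99021 at 3 µM and PD0325901 at 1 µM. Cells lacking Mettl3, the catalytic subunit of the m6A methyltransferase, or Mettl14, its partner subunit, were compared with the control cells of their own line. The titles mark the knockouts as CKO, and how or how completely the gene was removed was not given in the sources used here. RNA fragments bound by an m6A antibody were sequenced from 2 RNA fractions, polyadenylated RNA, here called mRNA, and RNA bound to chromatin and depleted of ribosomal RNA, here called caRNA. Each of the 8 groups held 2 libraries, so that 16 peak lists were compared, and the 16 input samples were not used here.

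Hox genes pattern the body axis and lie in clusters, where neighbouring genes are switched on in order along the embryo. Fox, Sox, Gata, Tbx, Pax and the other homeobox families direct the formation of single organs and cell types. In pluripotent stem cells many of these loci are held under Polycomb repression and make little RNA, while some members, such as the FoxO factors, act in most cells. The mark m6A is placed on transcripts mainly at DRACH motifs such as GGAC, often near stop codons and in long exons, and is known to favour the turnover of many transcripts.

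A gene counted as marked in a library if the summit of a peak, the base of highest signal, lay within its gene body on either strand. The lists held 16537 to 23380 peaks in mRNA and 37955 to 45241 in caRNA, and read depth is unknown. The smallest mRNA lists were those of the Mettl14 controls, with 16537 and 17738 peaks, against 23380 and 22654 in their knockouts. Of 12 embryonic stem cell markers, 9 to 11 were marked in each mRNA list and 11 or 12 in each caRNA list, the lower values including both Mettl3 knockout mRNA lists, which held 9 against 11 in their controls. The labels do not state whether the 2 libraries of a group are separate cultures, so a p-value here reflects no more than their spread, which may be technical. These are bulk samples, in which fewer cells of a type and less RNA per cell cannot be told apart, and lower methylation and lower RNA level cannot be told apart from a missing peak alone.

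Of the 158 factors, 100 were marked in at least 1 list (63.3%), close to the 62.0% of all protein-coding genes (13568 of 21900). Irx had the highest share of marked genes, 5 of 6, followed by Fox with 32 of 43, Sox with 12 of 17 and Hox with 27 of 39. Tbx had 7 of 12, Nkx 8 of 14, Lhx 4 of 8, Gata 2 of 4, and 3 of the 6 sine oculis genes were marked. None of the 9 Pax genes, which specify eye, kidney, muscle and B cells among others, held a summit in any of the 16 lists. The other genes without a summit were 12 Hox genes (Hoxa2, Hoxa4, Hoxa13, Hoxb1, Hoxb5, Hoxc5, Hoxc11, Hoxd1, Hoxd3, Hoxd4, Hoxd9 and Hoxd12) and 11 Fox genes (Foxa1, Foxb1, Foxb2, Foxd2, Foxd4, Foxe3, Foxi1, Foxi2, Foxl2, Foxn1 and Foxr2). Also without a summit were Lhx1, Lhx3, Lhx4, Lhx8, Nkx1-1, Nkx2-1, Nkx2-2, Nkx2-6, Nkx3-2, Nkx6-1, Irx6, 3 sine oculis genes, Sox5, Sox8, Sox10, Sox14, Sox18, Gata1, Gata5, Tbx1, Tbx2, Tbx19, Tbx21 and Tbx22. Among the Hox clusters, 8 of 11 HoxA, 8 of 10 HoxB, 7 of 9 HoxC and 4 of 9 HoxD genes were marked at least once.

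The factors differed from the rest of the genes in the RNA fraction that carried their peaks. In mRNA 60 to 81 factors were marked per library, 45.6% ± 4.82 of the 158 (SD, n = 8), beside 40.7% ± 3.21 of all protein-coding genes. In caRNA, whose lists were longer, 40 to 53 were marked, 29.5% ± 3.12, beside 48.3% ± 1.45 of all protein-coding genes. The factors were therefore marked more often than other genes in every mRNA library and less often in every caRNA library. Peaks in the factors made up 0.528% to 0.592% of an mRNA list and 0.248% to 0.335% of a caRNA list, 2 ranges that did not overlap. Their number was alike in both, at 94 to 134 per mRNA list and 102 to 132 per caRNA list. The lower share in caRNA thus goes with the longer lists and does not mean fewer factor peaks. With every list cut to its 16537 strongest peaks, 39.5% ± 1.31 of the factors were marked in mRNA and 16.5% ± 2.51 in caRNA, beside 35.9% ± 0.616 and 32.8% ± 1.55 of all protein-coding genes.

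**Figure D1:**
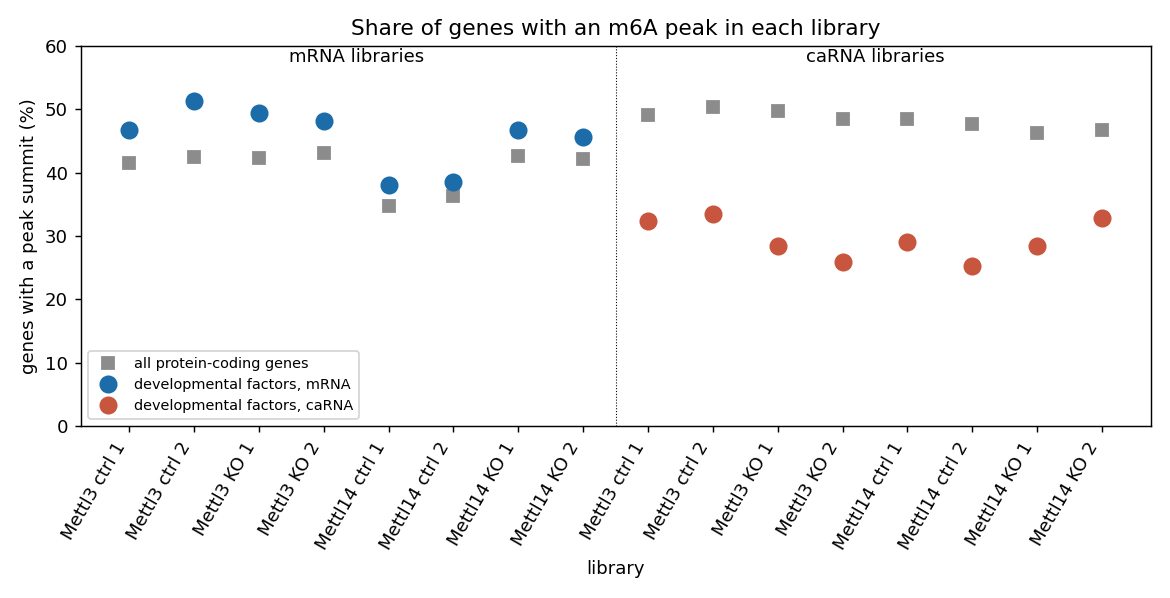
Percent of genes with a peak summit in their body, for each of the 16 libraries (x axis: line, genotype and replicate; y axis: percent of genes); circles are the 158 developmental factors and grey squares all 21900 protein-coding genes. The circles lie above the squares in all 8 mRNA libraries and below them in all 8 caRNA libraries.

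Of the 100 marked factors, 58 were found in more mRNA than caRNA libraries, 16 in more caRNA libraries and 26 equally often, against 1955, 5619 and 5994 of all marked genes. The tilt to mRNA was uneven over the families. More mRNA than caRNA libraries were found for 22 of 27 Hox, 4 of 5 Irx, 5 of 7 Tbx, 3 of 4 Lhx and 4 of 8 Nkx genes, but for 13 of 32 Fox, 5 of 12 Sox, 1 of 2 Gata and 1 of 3 sine oculis genes. Of the Fox genes 8 leaned to caRNA and 11 were equal. Peaks were confined to mRNA lists for 26 factors (16.5% of the 158, against 2.68% of all protein-coding genes) and to caRNA lists for 7 (4.43% against 9.81%). The 26 included 9 Hox, 7 Fox and 3 Irx genes.

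An exact two-sided permutation test on the presence of a peak, with fraction labels permuted within line and genotype, was run on all 13568 marked genes. After Benjamini-Hochberg adjustment it called 0 genes (0.0%) higher in either fraction, factors or others, and the lowest adjusted p was 0.07 at the smallest p the design allows, 0.00154. At an unadjusted p under 0.05, 24 of the 100 factors were marked more often in polyadenylated RNA, where 1.97% of all marked genes were. The other way, 2 of 100, Foxn4 and Tbx6, were marked more often in caRNA, where 10.5% of all marked genes were. Among those 24, named after their values were seen, were Hoxa3, Hoxa9, Hoxb7, Hoxb8, Hoxc6, Hoxd11 and Hoxd13, Foxc1, Foxc2 and Foxj1, Irx1, Irx4 and Irx5, Lhx2 and Lhx5, Nkx2-3 and Nkx2-9, Sox3 and Sox7, Gata3, Tbx4 and Tbx15. A test added after the data were seen, on the number of summits per gene in place of presence, passed the adjustment for 25 of the 100 factors in the direction of mRNA (2.48% of all marked genes) and for 12 in the direction of caRNA (35.2%).

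**Figure D2:**
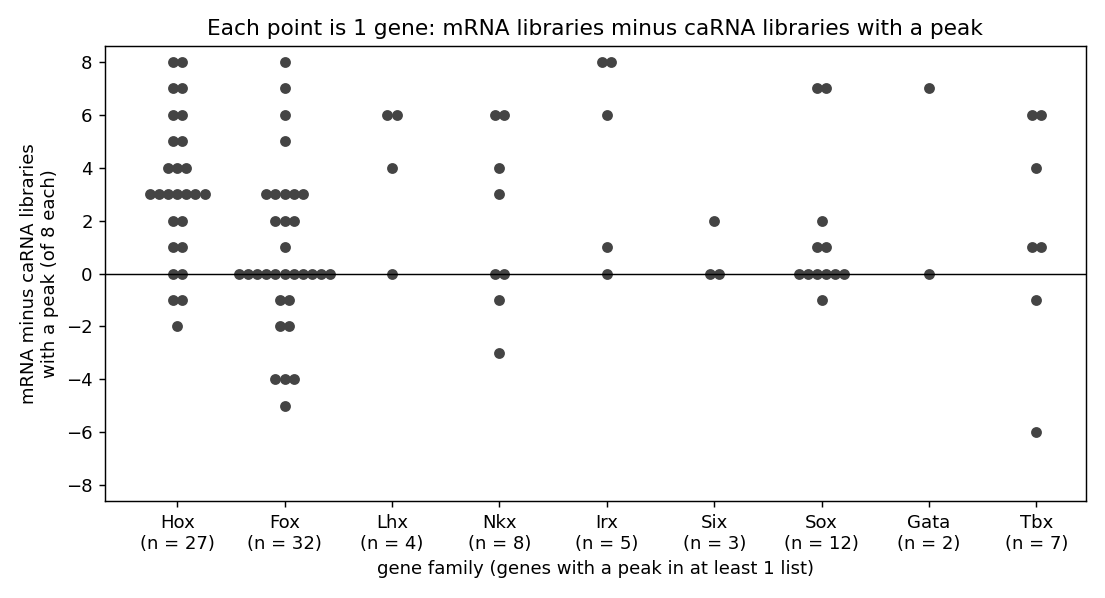
Number of mRNA libraries minus number of caRNA libraries with a peak, out of 8 each (y axis), for each of the 100 factors marked at least once, by family (x axis); 1 point is 1 gene and 0 is the same number in both fractions. Of the points, 58 lie above 0, 16 below and 26 on the line, and most Hox genes lie above.

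Only 21 of all 13568 marked genes (0.155%) held a peak in all 8 mRNA lists and in no caRNA list, and 5 of these were among the factors, including Hoxd13, Hoxb7, Irx4 and Irx5. These were named after their values were seen. In the opposite pattern, all 8 caRNA lists and no mRNA list, stood 278 genes (2.05%) and 0 factors. All folds given here are the authors' enrichment per peak, taken for the strongest peak of the gene in a list, and carry no test between lists. They also moved for genes as a whole: the median over all marked protein-coding genes was 5.50 and 5.34 in Mettl14 control mRNA and 7.07 and 6.92 in the knockouts, and 7.58 and 7.39 in Mettl3 control caRNA and 6.49 and 6.68 in the knockouts. In the other 2 comparisons these medians ran from 6.05 to 6.25 (Mettl3 mRNA) and from 7.44 to 7.94 (Mettl14 caRNA). Higher folds in Mettl14 knockout mRNA and lower folds in Mettl3 knockout caRNA were thus seen over all genes.

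Irx5, a homeobox factor of heart and retina, had mRNA folds of 11.4 and 10.3 in Mettl3 control libraries and 17.7 and 19.3 where Mettl3 was lost. Mettl14 controls gave 5.93 and 7.19, and Mettl14 knockouts 12.1 and 11.6. The knockout values thus lay above the control values in both lines without overlap, and no caRNA list held a peak. Irx4, a ventricle-specific factor, had folds of 7.10 and 7.24 in Mettl3 controls, 5.08 and 6.17 in Mettl3 knockouts, and of 7.13 and 5.42 against 6.89 and 7.51 in the Mettl14 line. Its values lay in one narrow band over all 8 mRNA libraries.

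Hoxd13, which shapes digits and the hind end of the body, had folds of 6.25 and 8.37 in Mettl3 controls, 8.06 and 10.7 in their knockouts, 4.08 and 5.18 in Mettl14 controls and 8.24 and 8.48 in theirs. Hoxb7, a trunk Hox gene, had 9.36 and 5.62, 10.3 and 6.98, 4.86 and 5.66, and 14 and 9.71 in the same order. For both genes the lowest of the 8 mRNA values was that of a Mettl14 control, and the Mettl14 knockouts lay above their controls without overlap, the direction of all genes in that comparison.

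Other members were nearly confined to mRNA. Gata3, a factor of T cells and trophoblast, was marked in all 8 mRNA lists with folds of 8.34 and 8.41 in Mettl3 controls, 6.27 and 6.80 in knockouts, 13.4 and 13.8 in Mettl14 controls and 17.5 and 15.6 in knockouts. Its single caRNA peak, in a Mettl3 control, had a fold of 5.13 (exact permutation p = 0.00463, adjusted p = 0.102). Hoxd11, a posterior limb gene, reached 18.9 and 8.17 in Mettl3 controls and 25.2 and 17.5 in knockouts, but 4.01 and 5.18 in Mettl14 controls and 9.91 and 9.77 in knockouts. Its 3 caRNA peaks were all in the Mettl14 line, with folds of 3.44, 4.6 and 6.85.

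On the caRNA side stood Foxn4, a factor of retinal progenitors. It was marked in all 8 caRNA lists, with folds of 17.1 and 16.7 in Mettl3 controls, 6.18 and 5.81 in knockouts, 6.76 and 6.54 in Mettl14 controls and 4.08 and 2.62 in knockouts. Both knockouts lay below their controls without overlap. In mRNA it was marked in 3 of 8 lists, with folds of 2.92, 4.49 and 4.58 (exact permutation p = 0.0417, adjusted p = 0.319). Tbx6, which specifies presomitic mesoderm, was marked in 6 caRNA lists and no mRNA list, but all 7 of its summits lay on the strand opposite the gene.

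By the number of summits, the 12 factors that passed in the direction of caRNA included Foxk2, Foxm1, Foxn2, Foxn3, Foxn4, Foxo1, Foxo3, Foxp1, Foxp4, Sox15 and Tbx6. Foxn3, whose gene body spans 373587 bp, held 45 summits over the mRNA lists and 137 over the caRNA lists (exact permutation, adjusted p = 0.00866). Foxp1, a factor of lymphocytes and neurons spanning 597405 bp, held 9 and 45 (adjusted p = 0.00866 by the same exact test). In the other direction Sox3, a factor of neural progenitors, held 15 summits in mRNA and 1 in caRNA, and Sox7, an endothelial factor, 8 and 0. Foxc2, of lymphatic vessels, held 15 and 1, and Foxj1, the regulator of motile cilia, 8 and 1.

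Gene length differed between factors and other genes and was therefore held apart. Of the 69 factors under 5 kb, 46.4% ± 4.65 (SD, n = 8) were marked in mRNA and 25.5% ± 4.18 in caRNA, beside 18.3% ± 1.81 and 21.8% ± 1.86 of 4978 other protein-coding genes of that length. Of the 47 factors of 5 to 20 kb, 37.0% ± 7.97 were marked in mRNA and 24.2% ± 3.79 in caRNA, beside 39.9% ± 3.23 and 48.1% ± 2.74 of other genes. Of the 42 factors over 20 kb, 53.9% ± 2.51 and 42.0% ± 4.0 were marked, beside 52.3% ± 3.86 and 62.0% ± 0.867 of other genes. In all 3 length classes the factors were marked more often in mRNA than in caRNA, and other genes more often in caRNA than in mRNA. In mRNA the library ranges of factors and other genes overlapped at 5 to 20 kb and over 20 kb. In caRNA they overlapped under 5 kb, and the longer factors lay below other genes. The short factors, which include most Hox genes, stood above other short genes in mRNA with no overlap between libraries (39.1% to 53.6% against 14.9% to 19.9%).

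A further set of 23 factors was marked in all 16 lists: 11 Fox, 6 Sox and 2 sine oculis genes with Lhx6, Nkx6-2, Irx2 and Gata2, and no Hox, Tbx or Pax gene. This was 14.6% of the 158, beside 25.4% of all protein-coding genes. Ranked by mean fold over the 16 lists, with 0 where there was no peak, which by construction favours genes marked in all lists, the 10 highest factors were Foxo3 (mean fold 16), Six4 (14.9), Sox11 (14), Foxo1 (13.5), Foxk1 (12.6), Sox4 (12.3), Foxn2 (11.2), Foxk2 (10.6), Sox1 (10.5) and Nkx6-2 (9.90). Over the lists with a peak alone, Irx5 had a mean of 11.9 (8 lists) and Nkx2-9 of 10.7 (10 lists), above Foxn2 and Foxk2 in turn. Every summit of Nkx2-9 lay in another gene body too, so its peaks cannot be assigned to Nkx2-9 alone.

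Foxo3 and Foxo1 carry insulin and stress signals to the genome. Foxo3 had mRNA folds of 11.5 and 15.5 in Mettl3 controls, 10.4 and 13.2 in knockouts, 8.08 and 7.23 in Mettl14 controls and 14.5 and 13.3 in knockouts. Its caRNA folds were 18.1 and 18.8 in Mettl3 controls, 11.5 and 13.2 in knockouts, and 24.3, 25.1, 26.3 and 25 over the Mettl14 line, controls first. The Mettl3 knockouts lay below their controls in caRNA, as did the median of all genes, and the 4 Mettl14 libraries were the highest of the 16. Foxo1 had 13.2 and 12.5 against 15.8 and 13.2 in Mettl3 mRNA, 10.1 and 8.84 against 22.9 and 12.7 in Mettl14 mRNA, 16.9 and 19.9 against 9.84 and 10.6 in Mettl3 caRNA and 12.0 and 11.8 against 12.5 and 12.9 in Mettl14 caRNA. Of the 4 comparisons, controls and knockouts overlapped in none but Mettl3 mRNA, where 1 control equalled 1 knockout, and the knockouts were the lower group in Mettl3 caRNA alone.

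Sox4, Sox11 and Sox12 form the SoxC group of neural and mesenchymal differentiation. Sox11 had caRNA folds of 26.8 and 29.4 in Mettl3 controls and 12.3 and 7.79 in knockouts, and of 26.3 and 20 in Mettl14 controls and 16.3 and 24.0 in knockouts. Its mRNA folds were lower in each of the 4 groups, at 8.43 and 7.27, 5.23 and 6.85, 8.15 and 4.69, and 11.2 and 9.40 in the same order. In caRNA the Mettl3 groups did not overlap and the Mettl14 groups did. Sox4 had caRNA folds of 11.7 and 10.3 in Mettl3 controls and 10.7 and 12.4 in knockouts, but 31.2 and 17.9 in Mettl14 controls and 27.4 and 19.7 in knockouts. The 2 lines did not overlap for Sox4 in caRNA, while control and knockout did in both, and its mRNA folds ran from 5.27 to 9.90.

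Sox1, which marks early neuroectoderm, went the other way, with mRNA folds of 15.4 and 13.2 in Mettl3 controls, 16.8 and 11.8 in knockouts, 11.4 and 10.4 in Mettl14 controls and 14.1 and 14.4 in knockouts. Its caRNA folds were 9.14 and 10.7, 4.81 and 3.36, 8.39 and 8.27, and 8.24 and 7.11. Its summits all lay in a second gene body as well, so they cannot be assigned to Sox1 alone, and the same held for Sox4. Six4, a factor of muscle precursors, had caRNA folds of 18.6 and 19.9 in Mettl3 controls, 11.7 and 14.8 in their knockouts, 17.4 and 18.1 in Mettl14 controls and 19.9 and 21.4 in knockouts. Its mRNA folds were 13.5 and 12.9, 10.1 and 11.9, 9.99 and 10.5, and 13.7 and 13.9. In both fractions the Six4 knockouts lay below controls in the Mettl3 line and above them in the Mettl14 line, as all genes did in Mettl3 caRNA and Mettl14 mRNA.

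Foxk1 and Foxk2 repress autophagy and metabolic genes. Foxk1 had mRNA folds of 9.72 and 11.4, 10.7 and 13.2, 8.17 and 9.87, and 12.4 and 13.3, and caRNA folds of 14.6 and 15.5, 10.6 and 8.78, 14.4 and 16.9, and 15.8 and 15.9, each for Mettl3 controls, Mettl3 knockouts, Mettl14 controls and Mettl14 knockouts. Foxk2 had 7.25 and 9.06, 7.25 and 7.18, 6.32 and 5.26, and 8.81 and 8.63 in mRNA, and 11.7 and 13.8, 9.59 and 10.6, 15.4 and 13.6, and 17.9 and 17.4 in caRNA. Foxk2 was higher in every caRNA library than in any mRNA library, and Foxk1 was not. Foxn2 had mRNA folds between 5.79 and 12.0, and caRNA folds of 15.5 and 17.5, 8.21 and 6.72, 22.2 and 18.8, and 14.1 and 13.0, with both knockouts below their controls. Nkx6-2, of the ventral neural tube and oligodendrocytes, ranged from 4.05 to 12.1 in mRNA and from 8.0 to 14.9 in caRNA.

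**Figure D3:**
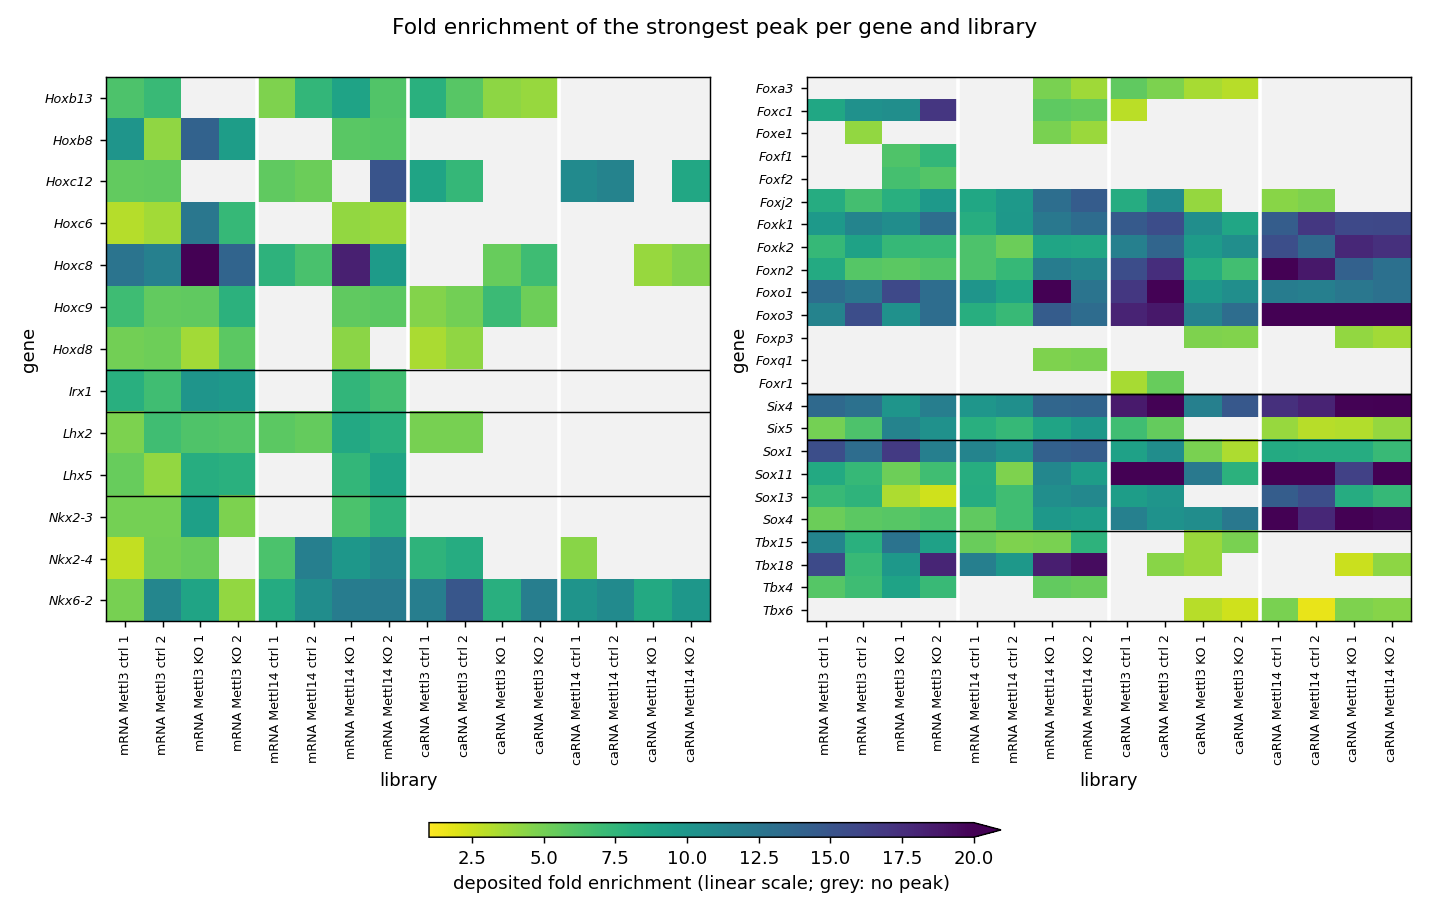
Deposited fold enrichment of the strongest peak of each factor lost or gained in a genotype comparison and of the 10 factors with the highest mean fold (rows, by family) in each of the 16 libraries (columns), on a linear colour scale that is capped at 20; grey means no peak. The rows of Foxk1, Foxk2, Foxo1, Foxo3, Six4, Sox4 and Sox11 are filled in all 16 columns, while those of Irx1, Lhx5 and Tbx4 are filled in 6 mRNA columns and no caRNA column.

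The first genotype question was which factors lost their peaks in the knockouts. A factor was called lost if it was marked in both controls and neither knockout, and gained if marked in both knockouts and neither control. In Mettl3 mRNA 2 of 74 factors marked in both controls were lost (2.70%, beside 3.67% of all genes), Hoxb13 and Hoxc12, and 2 of 73 were gained (2.74% beside 4.67%), Foxf1 and Foxf2. In Mettl14 mRNA 0 of 58 were lost (1.7% of all genes) and 11 of 69 were gained (15.9% beside 12.6%). In Mettl3 caRNA 7 of 47 were lost (14.9% beside 4.78%) and 4 of 39 gained (10.3% beside 3.76%), and in Mettl14 caRNA 1 of 38 was lost (2.63% beside 4.7%) and 3 of 41 gained (7.32% beside 2.74%). With 2 against 2 libraries no single comparison can reach an exact p below 0.333, so these counts carry no test, and whether the lines differ was not tested. With all lists cut to 16537 peaks, 9 of 29 factors were lost in Mettl3 caRNA (31.0% beside 13.7% of all genes), and 0 of 13 (6.91% of all genes) and 1 of 23 (4.35% beside 6.32%) were gained in Mettl3 and Mettl14 caRNA. With the 10000 strongest peaks of each list, the share lost in Mettl3 caRNA was that of all genes, 4 of 19 (21.1% beside 20.2%).

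**Figure D4:**
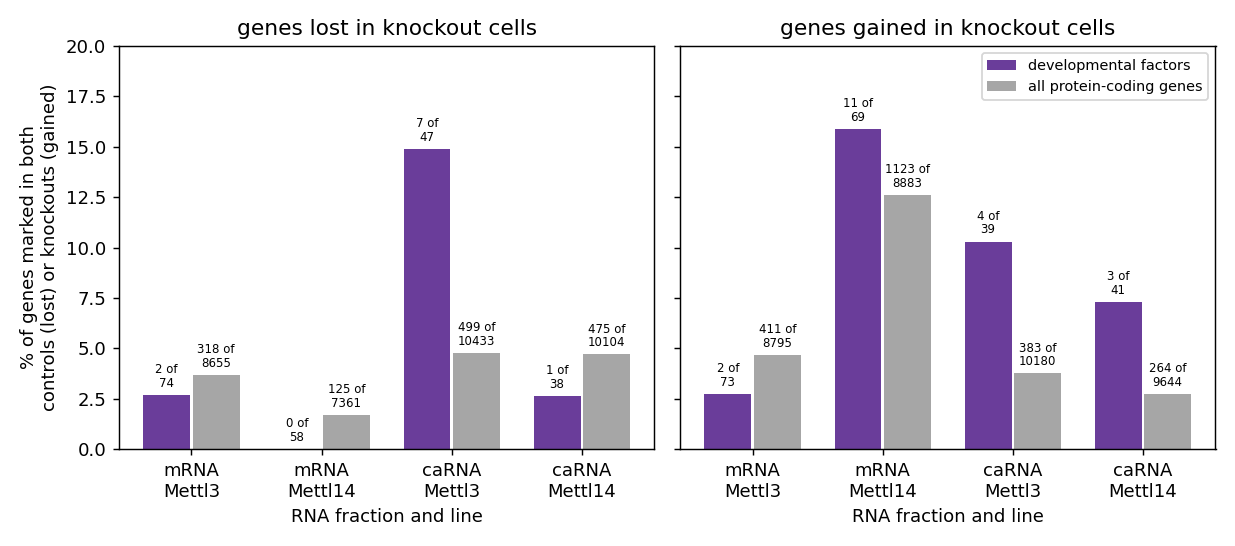
Percent of genes lost (left, of genes marked in both controls) and gained (right, of genes marked in both knockouts) in each RNA fraction and line (x axis); purple bars are the developmental factors, grey bars all protein-coding genes, and the numbers give the counts. The widest gaps between purple and grey are the 7 factors lost and the 4 gained in Mettl3 caRNA.

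Most factors kept their peaks in all 4 libraries of a comparison: 68 of 74 in Mettl3 mRNA (91.9%, beside 91.5% of all genes), 55 of 58 in Mettl14 mRNA (94.8% beside 97.0%) and 35 of 38 in Mettl14 caRNA (92.1% beside 90.0%). In Mettl3 caRNA 34 of 47 did (72.3% beside 90.1%). Over the 4 comparisons together, the exact permutation test of genotype within fraction and line called 0 factors and 0 genes in either direction after adjustment (0.0%, lowest adjusted p = 1.00). At an unadjusted p under 0.05 this exact test gave 1 factor marked more often in controls, Hoxc12 (p = 0.0139, 0.162% of all marked genes), and 0 marked more often in knockouts (0.28%). With any overlap of a peak and the gene body counted in place of the summit, the exact test gave 0 factors in either direction, so that the Hoxc12 result rests on the summit rule.

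Hoxc12, a gene of the posterior end of the HoxC cluster, was marked in all 8 control libraries. Its control folds were 5.53 and 5.66 in Mettl3 mRNA, 5.64 and 5.26 in Mettl14 mRNA, 8.93 and 7.38 in Mettl3 caRNA and 10.9 and 11.5 in Mettl14 caRNA. No summit lay in the gene in the 4 Mettl3 knockout libraries, and 1 of 2 Mettl14 knockout libraries held one in each fraction, with folds of 15.1 and 8.61. Its peaks sit at the 3′ edge of the gene body, however, and in 4 knockout libraries without a summit in the gene a peak still overlapped it. These had folds of 3.03 and 7.26 in the Mettl3 knockout caRNA, 10.3 in a Mettl14 knockout mRNA and 7.44 in a Mettl14 knockout caRNA library, with summits 47 to 360 bases beyond the gene body. Counted by overlap, Hoxc12 was therefore lost in Mettl3 mRNA alone. Hoxb13, a posterior gene of prostate and tail, had folds of 6.31 and 7.13 in Mettl3 control mRNA and no peak in the knockouts. It was retained in Mettl3 caRNA, at 7.92 and 5.90 against 4.25 and 3.90, and in Mettl14 mRNA, at 4.69 and 7.43 against 8.97 and 6.15.

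The 7 factors lost from Mettl3 caRNA were Hoxc12 (by its summit alone, as above), Hoxd8, Lhx2, Nkx2-4, Six5, Sox13 and Foxr1. Sox13, a SoxD factor, had folds of 9.40 and 10.1 in controls and no peak in knockouts, while in Mettl3 mRNA it was 7.21 and 7.63 in controls and 3.31 and 2.34 in knockouts. In Mettl14 caRNA Sox13 had 14.4 and 15.4 in controls and 8.24 and 7.30 in knockouts, and in Mettl14 mRNA 8.27 and 6.82 against 10.6 and 11.1. Its knockout values were thus below control values in 3 of the 4 comparisons and above them in Mettl14 mRNA.

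Six5 had folds of 6.86 and 5.48 in Mettl3 control caRNA and no peak in the knockouts, but was retained in mRNA, at 4.94 and 6.34 against 11.5 and 10.4. Nkx2-4 had 7.66 and 8.21 against none, Lhx2, a factor of eye and forebrain, 4.88 and 4.93 against none, and Foxr1 3.47 and 5.40 against none. Lhx2 was marked in all 8 mRNA lists, with folds of 4.74 to 8.55. Hoxd8 had 3.43 and 4.16 against none, and its summits were all shared with another gene body. Foxj2, the factor lost in Mettl14 caRNA, had 4.36 and 4.71 against none, and in Mettl3 caRNA 8.23 and 10.8 in controls with a single knockout peak of 4.0.

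The 11 factors gained in Mettl14 mRNA were Hoxb8, Hoxc6, Hoxc9, Foxa3, Foxc1, Foxe1, Foxq1, Irx1, Lhx5, Nkx2-3 and Tbx4. Of these Lhx5, of the hypothalamus and forebrain, had knockout folds of 7.41 and 8.80, Irx1 7.48 and 6.74, Nkx2-3, of gut and spleen, 6.36 and 7.62, and Hoxb8 5.84 and 6.01. Foxc1, a mesoderm and eye factor, had 5.74 and 5.47, Tbx4, the hindlimb factor, 5.53 and 5.37, and Hoxc9 5.63 and 5.80. Foxe1, of the thyroid, Foxa3, of endoderm and liver, Foxq1 and Hoxc6 had between 3.71 and 4.83. All but Foxa3, Foxe1 and Foxq1 were marked in all 4 mRNA libraries of the Mettl3 line, where Foxc1 reached 8.68 and 10.4 in controls and 10.6 and 17.0 in knockouts. The lists of the Mettl14 controls were the shortest, and with all lists cut to 16537 peaks 4 of the 11 were left, Hoxb8, Irx1, Lhx5 and Nkx2-3, a share of 6.56% beside 6.63% of all genes.

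In that comparison, peaks also appeared in markers of other cell types. Of 11 feeder fibroblast markers 1 was marked in each Mettl14 control mRNA list and 4 in each knockout list. Acta2, Col1a1 and Col6a1 were gained (3 of 4, 75.0% beside 12.6% of all genes). Of 8 primitive endoderm markers 3 were marked in each control and 6 in each knockout, with Foxa2, Gata4 and Sox17 gained. In Mettl3 caRNA, feeder markers went from 1 and 2 marked in controls to 6 and 7 in knockouts (4 of 6 gained, 66.7% beside 3.76%). Endoderm markers there went from 3 to 2. In the other 2 comparisons the ranges were 4 and 6 against 6 feeder markers (Mettl3 mRNA) and 3 against 4 (Mettl14 caRNA), and endoderm markers stood at 3 against 4 and at 1 against 1. Whether such cells were present, and whether they had a part in the gains of the factors, was not tested.

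Hoxc8 and Foxp3 were gained in the caRNA of both lines, comparisons that share no library. With all lists cut to the length of the shortest, or to their 10000 strongest peaks, neither gain was counted in either line. The same held for the caRNA gains of Tbx15, Tbx6 and Tbx18, given below. Hoxc8, a thoracic Hox gene, had knockout folds of 5.43 and 6.88 in Mettl3 and 3.94 and 4.50 in Mettl14 caRNA. In mRNA it was marked in all 8 libraries, at 12.7 and 11.7 in Mettl3 controls and 20.4 and 13.9 in knockouts, and at 7.70 and 6.47 in Mettl14 controls and 18.3 and 9.57 in knockouts. Its knockout folds thus lay above control folds in the mRNA of both lines without overlap, and in caRNA the controls had no peak (exact permutation p = 0.0556 for presence, adjusted p = 1.00). Foxp3, the factor of regulatory T cells, had 4.68 and 4.62 and then 4.08 and 3.61, with all 4 summits on the strand opposite the gene.

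The other gains in caRNA were Tbx15 (3.84 and 4.81) and Tbx6 (3.06 and 2.34) in Mettl3 and Tbx18, a factor of the epicardium and sinus node (2.54 and 4.2), in Mettl14. Tbx6 was also marked in both genotypes of the Mettl14 line. In Mettl3 mRNA the gained Foxf1 had folds of 6.26 and 7.45 and Foxf2 of 6.61 and 6.05, and neither gene had a peak in any other library. Both direct the mesenchyme of lung and gut. Within the Mettl14 line a single caRNA library stood apart for Hox genes. Its knockout 2 held 12 marked Hox genes, 5 of them in HoxA, against 5 in knockout 1 and 3 and 4 in the controls. The Mettl3 caRNA libraries held 10 and 10 in controls and 8 and 8 in knockouts, at most 1 of them in HoxA. Without knockout 1 of the Mettl14 line, 11 factors in place of 3 were counted as gained in Mettl14 caRNA. Without knockout 2 there were 5. The 12 Hox genes of knockout 2 included Hoxb3 and Hoxb4 (fold 4.37 each), Hoxa5 (2.96) and Hoxa6 (4.2). Every summit of these genes lay in another gene body too, so a single peak could count for more than 1 gene.

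Counted by region rather than by gene, overlapping peaks on 1 strand were joined over the 4 libraries compared. In Mettl3 caRNA 26 of 99 factor regions present in both controls were lost (26.3% beside 16.4% of all regions), in 18 genes, and 11 of 80 were gained (13.8% beside 16.9%). The strongest lost region lay near the 3′ end of Sox13 at chr1:133383255-133383880 on the minus strand, with folds of 9.40 and 10.1. The next were in Nkx2-4 at chr2:147083638-147083976 (7.66 and 8.21), Foxn3 at chr12:99195047-99195264 (6.47 and 7.13) and Lhx6 at chr2:36083256-36083480 (6.32 and 7.20). In Mettl14 caRNA 15 of 107 were lost (14% beside 15.7%) and 7 of 89 gained (7.87% beside 9.16%).

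In Mettl14 mRNA 36 of 124 factor regions were gained (29.0% beside 25.6%) and 1 of 79 lost (1.27% beside 6.33%). The strongest gained regions were in Sox6 at chr7:115476697-115477116, with folds of 9.38 and 9.43, and in Lhx5 at chr5:120440395-120440767, with 7.41 and 8.80. In Mettl3 mRNA 8 of 114 were lost (7.02% beside 10.2%) and 7 of 110 gained (6.36% beside 9.95%). Lost regions there included 1 in Sox3 (chrX:60891684-60892188, folds 6.87 and 5.73) and 1 on the strand opposite Sox1 (chr8:12397539-12397788, 6.06 and 5.84), and both genes kept other peaks. Shares of factor regions lost or gained lay near those of all regions except for losses in Mettl3 caRNA, which were higher, and losses in Mettl14 mRNA, which were lower, both without a test. With a reciprocal overlap of 50%, 33 factor regions were lost in Mettl3 caRNA and 11 in Mettl14 mRNA. No share of all regions stands beside these counts, so whether the differences from all regions held under this rule was not tested.

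Some factors were marked in 1 line alone, whatever the genotype, a description chosen after the values were seen and not tested. In mRNA, 6 of 100 factors were marked in all 4 libraries of the Mettl3 line and none of the Mettl14 line (6.0% beside 2.73% of all marked genes): Hoxa10, Hoxb6, Hoxc10, Hoxd10, Lhx9 and Sox30. Lhx9, a gonad factor, had folds of 7.60 and 9.23 in controls, against 11.5 and 11.1 in knockouts, and Hoxb6 6.31 and 7.81 against 8.15 and 11.6. Every summit of Hoxb6 lay in another gene body too, so its peaks cannot be assigned to Hoxb6 alone. Marked in all 4 mRNA libraries of the Mettl14 line and none of the Mettl3 line were Foxo6 and Nkx6-3 (2.0% beside 1.16%). In caRNA the shares lay near those of all genes: Foxa3, Hoxb13 and Hoxc9 were marked in the Mettl3 line alone (3.0% beside 3.1%) and Foxd1, a kidney stroma factor, in the Mettl14 line alone (1.0% beside 1.58%). Foxd1 caRNA folds were 14.3 and 10.2 in Mettl14 controls and 12.0 and 11 in knockouts, with no peak in the 4 Mettl3 libraries.

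Along the gene, summits of factors were placed much as in other genes. Strand was known for 107 of the 158 factors, 61 of them marked. In mRNA 35.8% ± 1.89 (SD, n = 8) of their sense summits lay in the last 10% of the gene body and 7.99% ± 2.05 in the first 10%, beside 34.3% ± 4.2 and 9.13% ± 1.9 in other genes. In caRNA these shares were 24.6% ± 4.78 and 13.6% ± 1.97, beside 20.9% ± 2.78 and 15.2% ± 0.826. The last 10% thus held the largest share in both fractions, and a smaller one in caRNA than in mRNA. The strongest peak of Foxo1 had its summit at 95.3% of the gene body from the 5′ end, that of Irx4 at 95.0% and that of Foxk2 at 94.4%, whereas in Hoxd13 it lay at 5.21% and in Sox11 at 16.7%.

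**Figure D5:**
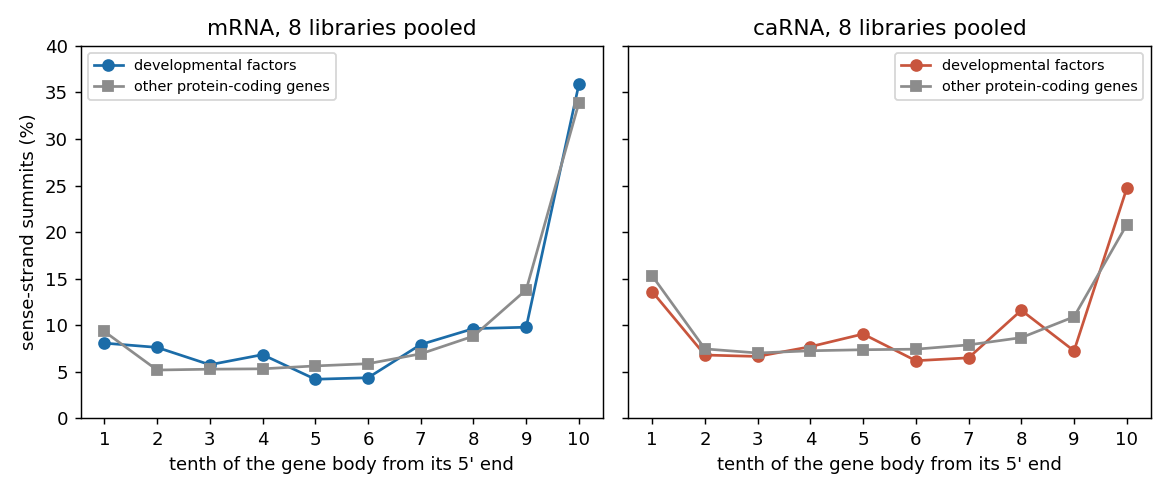
Percent of sense-strand summits in each of 10 equal parts of the gene body from the 5′ end (x axis), pooled over the 8 mRNA libraries (left) and the 8 caRNA libraries (right); coloured circles are factors with known strand and grey squares other protein-coding genes. Both curves peak in the last part, and the caRNA curves are flatter.

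Summits on the strand opposite the gene were 105 of 1412 and came from 15 genes. Per list they made up 6.38% ± 2.75 (SD, n = 8) of factor summits in mRNA and 8.42% ± 1.58 in caRNA. In other protein-coding genes these shares were 9.91% ± 1.59 and 10.2% ± 1.94, so opposite-strand summits were not particular to the factors. Of the 105 in factors, Foxo3 held 31 and Foxn3 15, Foxd3 10, Foxd1 8 and Tbx6 7. All summits of Foxp3, Tbx6 and Tbx10 lay on the opposite strand. Neighbouring and overlapping genes also share summits: 228 of 1937 pairs of factor and summit (11.8%) lay in another gene body too. This count has no share over all genes beside it. For 12 factors every summit was shared, as for Hoxb3 and Hoxb4, whose folds were identical in all 16 lists.

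Peaks at gene starts were counted for the factors alone, with no share over all genes beside them. RefSeq promoter windows of GRCm38.p6, from 250 bases before to 50 after an annotated start, matched 107 of the 158 factors. Of their 129 windows 16 were overlapped by a peak and 5 held a summit, 4 of them in at least 2 lists. The 250 bases before the start of these 4 windows are shown 5′ to 3′ on the strand of the gene, because the summits fall in them or, for some at Foxd1, just after the start. Capitals mark GGAC and, for the opposite strand, GTCC. The 4 letters occur by this search in 82.3% of the same windows of all genes in the table and in 85.3% of the factor windows, so their presence is a description only.

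The stretches lie at chr7:19094294-19094543 (Six5, plus strand), chr8:91801655-91801904 (Irx3, minus strand), chr2:74682073-74682322 (Hoxd11, plus strand, at a start within the annotated gene body) and chr13:98353995-98354244 (Foxd1, plus strand).
Six5: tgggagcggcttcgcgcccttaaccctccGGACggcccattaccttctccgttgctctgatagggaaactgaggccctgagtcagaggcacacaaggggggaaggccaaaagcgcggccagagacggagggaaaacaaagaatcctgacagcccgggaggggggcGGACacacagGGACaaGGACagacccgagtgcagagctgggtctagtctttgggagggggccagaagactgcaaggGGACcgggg
Irx3: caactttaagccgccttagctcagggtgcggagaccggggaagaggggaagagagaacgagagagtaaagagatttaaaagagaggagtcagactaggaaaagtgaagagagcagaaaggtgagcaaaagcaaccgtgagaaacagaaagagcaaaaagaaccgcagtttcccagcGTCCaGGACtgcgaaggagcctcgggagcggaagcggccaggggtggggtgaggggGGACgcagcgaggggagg
Hoxd11: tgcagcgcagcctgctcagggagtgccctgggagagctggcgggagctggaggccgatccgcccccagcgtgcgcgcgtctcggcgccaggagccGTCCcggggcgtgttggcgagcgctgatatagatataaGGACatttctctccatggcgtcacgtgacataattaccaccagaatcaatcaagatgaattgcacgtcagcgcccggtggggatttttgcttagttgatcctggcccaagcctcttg
Foxd1: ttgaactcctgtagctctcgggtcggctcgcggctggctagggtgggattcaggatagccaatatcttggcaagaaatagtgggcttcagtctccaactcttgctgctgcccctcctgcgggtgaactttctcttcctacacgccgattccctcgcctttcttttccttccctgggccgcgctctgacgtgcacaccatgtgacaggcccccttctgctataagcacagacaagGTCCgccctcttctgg

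The Six5 stretch holds GGAC 5 times on the gene strand. Summits lay there in 8 lists, all on the gene strand, at a median position of -155 from the start. Their folds were 5.66 in a Mettl3 mRNA control, 6.85 and 6.52 in the Mettl3 mRNA knockouts, 5.82 in a Mettl14 mRNA control and 7.62 and 5.26 in the knockouts. In caRNA both Mettl3 controls held it (6.02 and 8.12) and neither their knockouts nor any Mettl14 library did, the same Mettl3 pattern as the loss within the Six5 gene body. This peak was not counted in the gene, since it lies outside the body.

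The Irx3 stretch, with GGAC 2 times on the gene strand, held gene-strand summits in 10 lists at a median position of -182. Folds were 10.9 and 11 in Mettl3 mRNA controls, 14.6 and 9.62 in knockouts, 4.74 in 1 Mettl14 control and 8.95 and 9.14 in knockouts. In caRNA it appeared in the Mettl3 line alone, at 4.50 in a control and 3.90 and 4.46 in knockouts. Within each of these 7 mRNA libraries the fold before the start exceeded that within the Irx3 body, which ran from 2.62 to 5.67 over all 8. The Hoxd11 stretch held summits in 3 Mettl3 mRNA lists, with folds of 4.06, 4.61 and 4.54.

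At Foxd1 the 6 summits all lay on the strand opposite the gene, within -76 to 39 bases of the start, and all in Mettl14-line libraries. Folds in mRNA were 7.30 and 7.85 in the controls of that line and 14.2 and 14.6 in its knockouts, without overlap. In caRNA they were 3.41 and 4.38 in controls, and the knockouts had no summit there. No library of the Mettl3 line held a summit in the window.

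Cofactors of the same pathways, 34 genes in a list of protein partners of the factors, Groucho corepressors and FoxO kinases, give the surroundings in which the factors act. Of them 13 to 20 were marked per mRNA library and 20 to 23 per caRNA library, ranges that touch at 20. In no comparison was a cofactor lost, where 1.7% to 4.78% of all genes were. Gained were Akt1, a kinase that exports FoxO from the nucleus, the Hox cofactor Pbx4 and the corepressor Tle5 in Mettl14 mRNA (3 of 18, 16.7% beside 12.6% of all genes), and the Hox cofactor Meis2 in Mettl3 caRNA (1 of 23, 4.35% beside 3.76%), shares near those of all genes.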

How the data were processed

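The authors deposited 1 peak list per antibody library, 16 in all, called per library and not on pooled replicates. Per the submitters' processing notes, CASAVA, Trimmomatic 0.38, HISAT2 2.1.0, SAMtools 1.9 and build mm10 were used. The peak caller and the scaling of antibody to input reads were not given in the sources used here. In the narrowPeak layout the deposited columns hold a fold enrichment (a ratio), a p-value and a q-value as −log10, a score and the summit. The lowest deposited −log10 q-value per list was 2.00 to 2.02, so weaker peaks are outside the data. Peaks on spike-in sequences (43) were set aside.

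Summits were assigned to gene bodies of GRCm38.p6 with Python 3.11.15, numpy 2.4.6 and pandas 2.3.3, on either strand. Genes lost or gained were counted by presence in 2 against 2 libraries. Fraction and genotype were tested with exact two-sided permutation tests within the other factors (1296 arrangements, smallest p 0.00154), with Benjamini-Hochberg adjustment over 13568 genes, checked on simulated data. Regions were peaks of 4 lists merged on 1 strand where they overlapped by at least 1 bp. Depth is unknown, so no counting intervals are given. Replicate lists shared 0.3% to 0.874% of their intervals exactly and were kept as separate samples.

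Named genes are the factors lost or gained in any comparison, the 10 with the highest mean fold, and those in no list; others were named after their values were seen. The members and lists were chosen with earlier results of these data known. Replicate numbers did not pair the libraries: the correlations of same-numbered libraries' deviations were -0.0102, -0.00373, -0.0221 and -0.0124. Alternatives tried were a stricter q-value, the 10000 strongest peaks, other assignment and overlap rules, a replicate block and leaving out each library. A few single-gene results are not reported here.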

Additional observations from a re-analysis of the deposited data

How the results depend on the processing

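Leaving out 1 library at a time gave 70.7 to 73.7 factors marked per mRNA list and 45.7 to 47.6 per caRNA list, 23 to 25 factors with unadjusted exact p under 0.05 toward mRNA, 1 to 3 toward caRNA, 1 to 2 toward controls and 0 to 0 toward knockouts, and 0 to 0 adjusted calls in each direction. Genes lost ranged from 2 to 6 (Mettl3 mRNA), 0 to 2 (Mettl14 mRNA), 9 to 11 (Mettl3 caRNA) and 1 to 5 (Mettl14 caRNA), and genes gained from 2 to 5, 12 to 13, 4 to 5 and 4 to 11. Regions lost ranged from 12 to 19, 1 to 2, 30 to 38 and 19 to 28, and regions gained from 9 to 15, 39 to 45, 14 to 28 and 10 to 27. With 1 library left in a group, that library alone decides presence. No share of all genes or regions stands beside these counts, so they describe the counting and are no result about the factors. In Mettl3 mRNA, 6 genes were lost without control 1 and 4 without either knockout, and 5 were gained without control 2 or without knockout 2. In Mettl14 mRNA 1 was lost without knockout 1 and 2 without knockout 2. In Mettl3 caRNA 11 were lost without control 2 or without knockout 1. In Mettl14 caRNA 5 were lost without control 2 and 2 without either knockout, and 11 were gained without knockout 1 and 5 without control 1 or without knockout 2.

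At a −log10 q of at least 5, 1 gene was lost in Mettl14 mRNA (1.72% beside 1.69% of all genes) and 1 stood toward caRNA (1.0% beside 10.6%). With the 10000 strongest peaks per list, which by construction leaves fewer peaks, 45.2 factors were marked per mRNA list and 18.5 per caRNA list. These were 28.6% and 11.7% of the factors, beside 26.9% and 24.8% of all protein-coding genes. Genes lost were then 4 in Mettl3 mRNA (9.3% beside 7.12% of all genes) and 1 in Mettl14 mRNA (2.86% beside 5.02%). In caRNA they were 4 in Mettl3 (21.1% beside 20.2%) and 4 in Mettl14 (19.0% beside 8.19%). Genes gained were 5 in Mettl14 mRNA (11.4% beside 6.67%) and 0 in both caRNA comparisons (11.6% of all genes in Mettl3, 7.59% in Mettl14). Regions lost were 5 (Mettl3 mRNA), 8 (Mettl3 caRNA) and 8 (Mettl14 caRNA), and regions gained 4 (Mettl3 mRNA), 7 (Mettl14 mRNA), 1 (Mettl3 caRNA) and 3 (Mettl14 caRNA). Toward caRNA stood 0 factors (4.42% of all marked genes) and toward controls 2 (2.86% beside 0.522%). Counting any overlap with the gene body gave 2 genes lost in Mettl14 caRNA (5.0% beside 4.64% of all genes). It gave 0 toward controls (0.147% of all marked genes), Hoxc12 being the gene that dropped out. A reciprocal overlap of 50% gave regions lost of 13 (Mettl3 mRNA), 11 (Mettl14 mRNA) and 24 (Mettl14 caRNA), and regions gained of 18 (Mettl3 caRNA) and 17 (Mettl14 caRNA). Region counts in these settings have no share of all regions beside them and are no result about the factors. Where no construction is named, the cause was not tested.

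At an unadjusted exact p under 0.05, the fit with the replicate number as a block gave 1 factor toward caRNA (1.0% beside 7.06% of all marked genes). Toward mRNA it gave 21 (21.0% beside 1.26%). It gave 0 adjusted calls (smallest p 0.00781) and changed no other call.

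Chosen after seeing the data were lists cut to the shortest, sense summits alone and the number of summits. Lists cut to 16537 peaks gave 26.0 factors per caRNA list, genes gained of 6 (Mettl3 mRNA), 4 (Mettl14 mRNA), 0 (Mettl3 caRNA) and 1 (Mettl14 caRNA), 1 gene lost in Mettl14 mRNA, regions lost of 2 (Mettl14 mRNA), 14 (Mettl3 caRNA) and 2 (Mettl14 caRNA), regions gained of 11 (Mettl14 mRNA), 3 (Mettl3 caRNA) and 4 (Mettl14 caRNA), and 0 factors toward caRNA. Sense summits alone, which cover only the 107 factors with a known strand, gave 46.8 factors per mRNA list. In Mettl3 mRNA 0 were lost (3.71% of all genes) and 1 gained (2.04% beside 4.69%). In Mettl14 mRNA 5 were gained (11.9% beside 13.0%). Gains in caRNA were 0 in Mettl3 (3.39% of all genes) and 1 in Mettl14 (3.45% beside 2.87%). Toward caRNA stood 1 factor (1.72% beside 10.4%), toward mRNA 12 (20.7% beside 1.98%) and toward controls 0 (0.184% of all marked genes). The number of summits gave 25 adjusted calls toward mRNA (2.48% of all marked genes) and 12 toward caRNA (35.2%). Unadjusted, it gave 12 toward caRNA (12.0% beside 42.4%), 2 toward controls (2.0% beside 1.55%) and 1 toward knockouts (1.0% beside 4.92%). Peaks below the authors' threshold and read depth limit all counts.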

Other observations

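Developmental regulators outside the 10 families, a list of 58 genes, were marked in 27 to 32 cases per mRNA library and 16 to 24 per caRNA library. Of all protein-coding genes 40.7% ± 3.21 (SD, n = 8) were marked in mRNA and 48.3% ± 1.45 in caRNA. Of the 40 regulators marked at least once, 23 were found in more mRNA than caRNA libraries, 3 in more caRNA libraries and 14 equally often. Of all marked genes these were 1955, 5619 and 5994. Peaks were confined to mRNA lists for 13 regulators (22.4% of the 58, beside 2.68% of all protein-coding genes). For 1 they were confined to caRNA lists (1.72% beside 9.81%). In Mettl3 mRNA 3 of 27 were lost (11.1%, beside 3.67% of all genes): Cdx1, a caudal homeobox gene, Isl2, of motor neurons, and Zic5, of the neural crest. In the caRNA of the same line 5 of 22 were lost (22.7% beside 4.78%): Isl1, Isl2, Pou3f2, Pou3f3 and Zic5. Pitx1, of the hindlimb, and Pou3f3 were gained in Mettl3 mRNA (2 of 26, 7.69% beside 4.67%), and Emx2, Msx1 and Snai1, the regulator of epithelial to mesenchymal transition, in Mettl14 mRNA (3 of 31, 9.68% beside 12.6%). None was lost in Mettl14 mRNA (1.7% of all genes) and none gained in Mettl3 caRNA (3.76%). In Mettl14 caRNA none was lost (4.7% of all genes) or gained (2.74%). These counts carry no test.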
